A study of Mus musculus with 4 samples.

Results

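Interferon-stimulated genes were followed in vascular smooth muscle cells (VSMCs) of mouse atherosclerotic plaques and of ligated mouse carotid arteries. The set holds 36 genes of the 34469 listed in any library. It was chosen by gene name, with earlier results of these data known. The Ifit, Oas and Mx families gave 11 members (Ifit1, Ifit2, Ifit3, Ifit3b, Oas1a, Oasl1, Oasl2, Oas2, Oas3, Mx1 and Mx2), and the guanylate-binding proteins and immunity-related GTPases (Gbp/Irg) gave 7 (Gbp2, Gbp3, Gbp7, Iigp1, Igtp, Irgm1 and Ifi47). The other 18 were Isg15, Rsad2, Irf7, Irf9, Irf1, Usp18, Ifi44, Bst2, Ifi35, Ifi27l2a, Stat2, Ddx58, Ifih1, Xaf1, Rtp4, Parp14, Trim30a and Eif2ak2.

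The study compared mice whose VSMCs express a mutant of TRF2, a telomere-protecting protein, with mice that lack the transgene, by single-cell RNA-seq of 1 library per genotype in 2 experiments. In the plaque experiment, both groups were male C57Bl/6 mice with Myh11-CreERt2, the Confetti reporter and ApoE-/-, given tamoxifen at 6 weeks of age and a high fat diet for 14 weeks, and the Trf2T188A/ApoE-/- group also carried the mutant TRF2 transgene under a minimal Sm22a promoter, which is active in smooth muscle. Plaques came from the aortic root, the arch and the carotid arteries. Clusters with Confetti reporter transcript had been kept, and the study took these as VSMC-derived cells. The selection was by cluster, so it does not establish the origin of each cell. In the ligation experiment, control and Trf2T188A male C57Bl/6 mice of 4 to 5 months had the left common carotid artery ligated for 28 days, and adventitia and parts without remodelling were removed before digestion. The number of mice in each library is not given in the sources used here. With 1 library per genotype there is no replicate of a genotype and no test between genotypes, genotype cannot be told apart from the animals and the preparation of a library, and every interval below covers counting error only.

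Interferons are secreted signals of infection and of misplaced nucleic acid. Type I interferons bind the Ifnar1 and Ifnar2 receptor and act through a complex with Stat2 and Irf9, which binds the interferon-stimulated response element (ISRE), whereas interferon gamma binds Ifngr1 and Ifngr2 and acts mainly through the gamma-activated site (GAS). Ifit, Oas and Mx genes are known chiefly as type I targets and Gbp and Irg genes for their strong response to interferon gamma, although each interferon induces part of the other set.

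The promoters of the members show how far the elements are shared between the families. Windows from 250 bases before to 50 bases after the RefSeq start (GRCm38.p6, 300 bases) were searched on both strands for an ISRE core (TTTC, any 2 bases, TTTC) and for the GAS core TTCNNNGAA. Of 28 members with a window, 18 held an ISRE match (64.3%), against 3.99% of the 27025 genes with a window. A GAS match was present in 8 of the 28 (28.6%), against 9.55% of all genes. By family, the ISRE core was found in 5 of 8 Ifit/Oas/Mx windows, in 5 of 6 Gbp/Irg windows and in 8 of 14 of the others, so it did not separate the families, and the same held for GAS with 2 of 8, 2 of 6 and 4 of 14. Both elements stood in Bst2, Eif2ak2, Gbp7, Igtp and Oas1a, GAS alone in Ifi35, Ifit2 and Irf1, and neither in Ifi44, Ifi47, Irf7, Irf9, Oasl1, Oasl2 and Xaf1. A match describes letters in this window and is not evidence of binding.

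Stretches are printed for the members on which the results below turn, read 5′ to 3′ along the strand of the gene with the ISRE and GAS matches in capitals. They lie at chr19:34640774-34640833 for Ifit1 (plus strand), at chr19:34583359-34583428 for Ifit3 (plus strand), at chr19:34607755-34607824 for Ifit3b (plus strand), at chr4:156200854-156200913 for Isg15 (minus strand), at chr3:142559974-142560023 for Gbp3 (plus strand), at chr3:142530226-142530305 for Gbp7 (plus strand), at chr11:58199496-58199545 for Igtp (plus strand) and at chr11:53769904-53769953 for Irf1 (plus strand). All lie upstream of the RefSeq start of the gene.
Ifit1: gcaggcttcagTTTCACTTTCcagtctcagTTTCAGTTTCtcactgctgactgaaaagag
Ifit3: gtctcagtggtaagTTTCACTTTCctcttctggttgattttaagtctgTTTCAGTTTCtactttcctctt
Ifit3b: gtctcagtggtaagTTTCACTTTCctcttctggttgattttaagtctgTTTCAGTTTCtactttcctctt
Isg15: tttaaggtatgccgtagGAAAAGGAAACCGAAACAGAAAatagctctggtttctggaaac
Gbp3: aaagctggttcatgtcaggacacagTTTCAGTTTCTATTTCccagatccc
Gbp7: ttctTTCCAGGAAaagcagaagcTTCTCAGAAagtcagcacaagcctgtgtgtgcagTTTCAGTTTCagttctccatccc
Igtp: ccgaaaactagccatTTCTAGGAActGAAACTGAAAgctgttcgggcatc
Irf1: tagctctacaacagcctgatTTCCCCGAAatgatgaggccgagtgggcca
The Ifit1, Ifit3 and Ifit3b stretches hold 2 ISRE matches each, the Isg15 stretch 3 overlapping ones, the Gbp3 stretch 2 overlapping ones, the Gbp7 stretch 2 GAS and 1 ISRE, the Igtp stretch 1 of each and the Irf1 stretch 1 GAS. Ifit3 and Ifit3b are near copies of each other, and their stretches were identical at 70 of 70 bases. Reads of their transcripts can therefore be split or lost in counting, so the values of Ifit3 and Ifit3b are less certain than those of Ifit1. The 4 Ifit genes lie close together on chromosome 19 (GRCm38), Gbp7, Gbp3 and Gbp2 on chromosome 3, and Igtp, Irgm1, Ifi47 and Irf1 all lie on chromosome 11.

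The deposited values were UMIs (unique molecular identifiers, each standing for an RNA molecule caught) per 10000 UMIs of the cell, from which whole UMIs were recovered. Levels are given as summed UMIs per 10000 UMIs, with the exact 95% interval where it matters. The libraries held 1502 ApoE-/- cells, 929 Trf2T188A/ApoE-/- cells, 4967 ligation control cells and 5392 ligation Trf2T188A cells, with medians of 22765.5, 24377, 8631 and 11153 UMIs per cell. After ligation, 62 and 65 endothelial-like and 19 and 57 myeloid-like cells were set apart, which left 4886 control and 5270 Trf2T188A smooth muscle cells. No barcode was shared between the plaque libraries, and 10 were shared between the ligation libraries. Terf2, the gene of TRF2, stood at 0.183 in each plaque library and at 0.177 (control) and 0.167 (Trf2T188A) after ligation, so the transcript count did not mark the transgenic library, and the mapping of the transgene is not given in the sources used here.

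In plaques, interferon-stimulated genes were slightly higher in the Trf2T188A/ApoE-/- library, and most differences were small. The summed Gbp/Irg level was 0.899 (0.869 to 0.930) in ApoE-/- and 1.13 (1.09 to 1.17) in Trf2T188A/ApoE-/-, a log2 ratio of 0.33 (0.26 to 0.40). The summed Ifit/Oas/Mx level was 0.393 (0.373 to 0.413) and 0.471 (0.444 to 0.4995), a log2 ratio of 0.26 (0.15 to 0.37). A gene was assessed where it had at least 20 UMIs over both libraries, which 32 of the 36 members reached. Past a difference of 1.5-fold (0.585 on the log2 scale), Ifit1 and Ifi44 were higher in Trf2T188A/ApoE-/-, that is 2 of 32 beside 4.09% of all 17280 genes assessed, and no member was lower, beside 6.72%. The count is thus close to the background. By direction, 27 members lay above 0 and 5 below, with a median log2 ratio of 0.19 against −0.02 over all genes.

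After ligation the direction was the opposite and the differences were larger. In smooth muscle cells the summed Gbp/Irg level was 1.88 (1.84 to 1.91) in control and 0.809 (0.788 to 0.831) in Trf2T188A, a log2 ratio of −1.21 (−1.26 to −1.16). The summed Ifit/Oas/Mx level was 0.932 (0.905 to 0.960) and 0.645 (0.626 to 0.665), a log2 ratio of −0.53 (−0.59 to −0.47). Of 33 members assessed, 16 were lower in Trf2T188A past 1.5-fold, beside 4.89% of all 17364 genes, and none was higher, beside 5.36%. The 16 were 6 of 8 Ifit/Oas/Mx genes, 6 of 7 Gbp/Irg genes and Rsad2, Usp18, Ifi44 and Trim30a. The median log2 ratio was −0.56 over the members and −0.02 over all genes, and Ifi27l2a alone lay above 0. With endothelial-like and myeloid-like cells included, 17 of 34 were lower, beside 4.99% of genes, and none was higher, beside 6.26%.

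A cluster of 29 cells, 28 of them control, carried a large part of that difference. Without it the log2 ratio was −0.60 (−0.65 to −0.54) for Gbp/Irg, from 1.20 in control to 0.791 in Trf2T188A, and −0.28 (−0.35 to −0.22) for Ifit/Oas/Mx, from 0.745 to 0.613. Members lower past 1.5-fold then numbered 8 of 33, beside 4.75% of genes (none was higher, beside 5.38%), namely Oasl1, Gbp2, Gbp3, Iigp1, Igtp, Rsad2, Ifi44 and Trim30a. This alternative was chosen after the data had been seen. The cluster was picked as the ligation cluster with the highest Gbp/Irg level. A smaller Gbp/Irg difference without it thus follows in part from that choice. The median log2 ratio was then −0.36, and 31 of 33 members lay below 0.

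**Figure D1:**
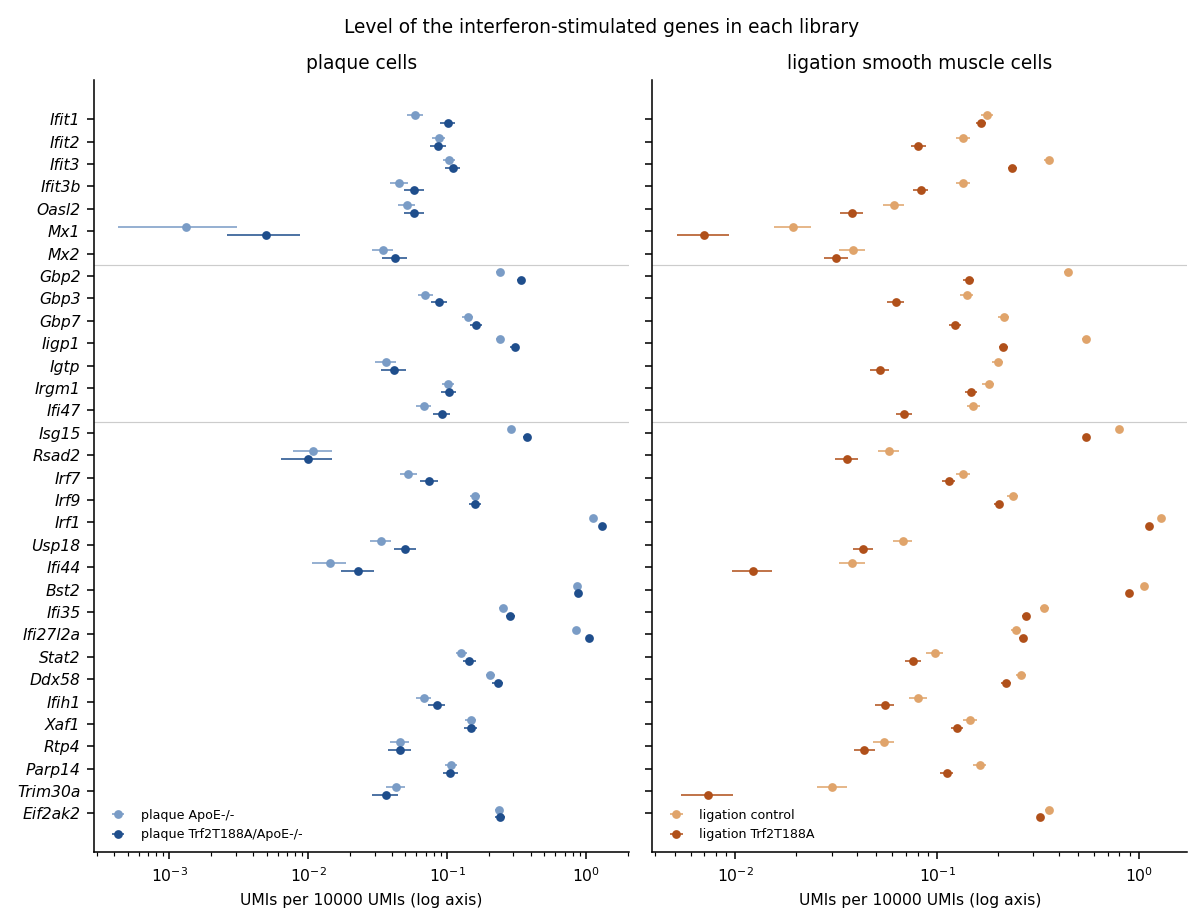
Level of the 32 interferon-stimulated genes with at least 100 UMIs in an experiment, in UMIs per 10000 UMIs on a log axis, for plaque cells (left, ApoE-/- light blue and Trf2T188A/ApoE-/- dark blue) and ligation smooth muscle cells (right, control light orange and Trf2T188A dark orange), with grey lines between the Ifit/Oas/Mx genes, the Gbp/Irg genes and the others and bars for the exact 95% interval. Dark points lie a little to the right of light ones in many plaque genes and to the left of them in every ligation gene but Ifi27l2a.

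The Ifit genes encode proteins that bind foreign RNA. Ifit1 stood at 0.0589 in ApoE-/- and 0.101 in Trf2T188A/ApoE-/- plaque cells (log2 ratio 0.78, 0.51 to 1.05), and at 0.178 and 0.165 in control and Trf2T188A ligation cells (−0.11, −0.24 to 0.03). Ifit2 was level between the plaque libraries at 0.0871 and 0.0860, but after ligation it went from 0.134 to 0.0807 (−0.73, −0.90 to −0.57). Ifit3 was at 0.104 and 0.110 in plaques and at 0.357 and 0.236 after ligation (−0.60, −0.70 to −0.50). Its near copy gave the same picture. Ifit3b was at 0.0452 and 0.0578 in plaques and at 0.134 and 0.0830 after ligation (−0.69, −0.86 to −0.52). Ifit1 thus passed 1.5-fold in plaques alone and its 3 neighbours after ligation alone. Without the 29-cell cluster none of the 3 neighbours passed it after ligation. Ifit2 was then at −0.44, Ifit3 at −0.39 and Ifit3b at −0.41, with Ifit1 at 0.10.

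Oas genes encode or resemble the enzymes that switch on RNase L, and Mx genes encode dynamin-like antiviral GTPases, with an Mx1 allele in C57Bl/6 mice that is known to lack coding exons. GENCODE lists Mx2 as a polymorphic pseudogene. Oasl2 was at 0.0510 and 0.0578 in plaques (0.18, −0.14 to 0.50) and at 0.0610 and 0.0377 after ligation (−0.69, −0.94 to −0.44). Mx2 was at 0.0343 and 0.0420 in plaques and at 0.0381 and 0.0316 after ligation, where its ratio was −0.27 (−0.56 to 0.03). Mx1 had 5 and 12 UMIs in plaques (0.00132 and 0.00499) and stood at 0.0193 and 0.00699 after ligation (−1.46, −2.01 to −0.93). The Mx1 ratio rested on very few cells, since the 90 control UMIs came from 19 cells and 56 of them from 3 cells of the 29-cell cluster, and it was −0.30 (−1.005 to 0.404) without that cluster. The remaining Oas genes were close to the limit of counting. Oas1a had 23 and 19 UMIs in plaques and 15 and 4 after ligation, Oasl1 had 10 and 9, then 31 and 19, and Oas2 and Oas3 had at most 7 UMIs in the plaque cells or ligation smooth muscle cells of any library.

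Gbp genes encode guanylate-binding proteins, which gather on the vacuoles of intracellular microbes. Gbp2 was at 0.242 and 0.341 in plaques (0.49, 0.36 to 0.63) and at 0.444 and 0.143 after ligation (−1.63, −1.75 to −1.52). Gbp3 was at 0.0697 and 0.0877 in plaques (0.33, 0.06 to 0.60) and at 0.140 and 0.0625 after ligation (−1.17, −1.35 to −0.99). Gbp7 was at 0.140 and 0.160 in plaques (0.19, 0.00 to 0.39) and at 0.214 and 0.123 after ligation (−0.80, −0.93 to −0.66). Each of these Gbp genes was thus above 0 in plaques, under 1.5-fold, and past 1.5-fold lower after ligation. Without the 29-cell cluster Gbp2 was at −0.65 and Gbp3 at −0.62, while Gbp7 was at −0.39 and no longer past 1.5-fold.

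The immunity-related GTPases are close relatives that act on the same vacuoles. Iigp1 was at 0.241 and 0.307 in plaques (0.35, 0.20 to 0.49) and at 0.546 and 0.213 after ligation (−1.36, −1.45 to −1.26). Igtp was at 0.0362 and 0.0411 in plaques and at 0.199 and 0.0518 after ligation (−1.94, −2.13 to −1.76). Ifi47 was at 0.0681 and 0.0910 in plaques (0.42, 0.15 to 0.68) and at 0.151 and 0.0684 after ligation (−1.14, −1.32 to −0.97). Irgm1, a regulator of the other GTPases of the family, was the exception in this group. It was level at 0.102 in both plaque libraries, and after ligation it was at 0.180 and 0.147, short of 1.5-fold (−0.29, −0.42 to −0.15).

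The transcription factors among the members given here differed by less than 1.5-fold in both experiments. Irf1, a factor that interferon gamma induces, was at 1.12 and 1.31 in plaques (0.23, 0.17 to 0.30) and at 1.28 and 1.12 after ligation (−0.20, −0.25 to −0.15). Irf7, which amplifies type I interferon output, was at 0.0526 and 0.0740 in plaques (0.49, 0.19 to 0.79) and at 0.135 and 0.114 after ligation (−0.24). Irf9, the DNA-binding part of the type I complex, was at 0.158 in both plaque libraries and at 0.237 and 0.202 after ligation (−0.23). Stat2 is the partner of Irf9 in that complex. It was at 0.127 and 0.144 in plaques (0.19, −0.02 to 0.39) and at 0.0971 and 0.0760 after ligation (−0.35, −0.54 to −0.17).

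Among effectors and their regulators, Isg15, a ubiquitin-like protein attached to other proteins, was at 0.289 and 0.374 in plaques (0.37, 0.24 to 0.50) and at 0.794 and 0.548 after ligation (−0.53, −0.60 to −0.47). Usp18, which removes Isg15 from proteins and dampens the type I receptor, was at 0.0333 and 0.0499 in plaques (0.58, 0.21 to 0.96), just inside 1.5-fold, and at 0.0674 and 0.0430 after ligation (−0.65, −0.88 to −0.41). Rsad2, which makes an antiviral nucleotide, had 41 and 24 UMIs in plaques (0.0108 and 0.00997) and stood at 0.0578 and 0.0356 after ligation (−0.70, −0.96 to −0.44). These members followed the pattern of the Ifit genes after ligation. Bst2, or tetherin, which holds budding virus at the membrane, was at 0.864 and 0.873 in plaques and at 1.06 and 0.898 after ligation (−0.24, −0.29 to −0.18). Eif2ak2, the RNA-activated kinase PKR, was at 0.235 and 0.242 in plaques and at 0.360 and 0.325 after ligation (−0.15, −0.24 to −0.05). Bst2 and Eif2ak2 were thus nearly level in plaques and differed little after ligation.

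The RNA sensors Ddx58 (RIG-I) and Ifih1 (MDA5) lay above 0 in plaques and below 0 after ligation, each by less than 1.5-fold. Ddx58 was at 0.205 and 0.231 in plaques (0.17) and at 0.261 and 0.220 after ligation (−0.25). Ifih1 was at 0.0681 and 0.0839 in plaques (0.30) and at 0.0806 and 0.0549 after ligation (−0.56, −0.77 to −0.34). Trim30a, a ubiquitin ligase of the TRIM family, showed the lowest ligation ratio of the members. It was at 0.0428 and 0.0362 in plaques (−0.24, −0.64 to 0.14) and at 0.0302 and 0.00730 after ligation (−2.05, −2.55 to −1.57), from 141 and 48 UMIs, and at −1.85 without the 29-cell cluster. Ifi44 was at 0.0143 and 0.0229 in plaques (0.68, from 54 and 55 UMIs) and at 0.0379 and 0.0122 after ligation (−1.64, from 177 and 80 UMIs). Both genes therefore kept a low ligation ratio that the cluster of 29 cells did not carry, since Ifi44 was at −1.37 without it.

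The other 5 well-counted members differed by less than 1.5-fold in each experiment. Ifi35 was at 0.253 and 0.284 in plaques (0.17) and at 0.341 and 0.276 after ligation (−0.30). Xaf1, a factor that binds the apoptosis inhibitor XIAP, was at 0.147 and 0.148, then 0.146 and 0.125 (−0.22). Rtp4 was at 0.0454 and 0.0457, then 0.0543 and 0.0436 (−0.32). These 3 genes were nearly level in plaques or slightly above 0. Parp14, an enzyme that adds ADP-ribose to proteins, was at 0.106 in both plaque libraries, with a ratio of −0.01, and at 0.162 and 0.112 after ligation (−0.54). Ifi27l2a was the only member above 0 in both experiments among those assessed, at 0.846 and 1.05 in plaques (0.31, 0.23 to 0.38) and at 0.246 and 0.268 after ligation (0.12, 0.01 to 0.23).

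**Figure D2:**
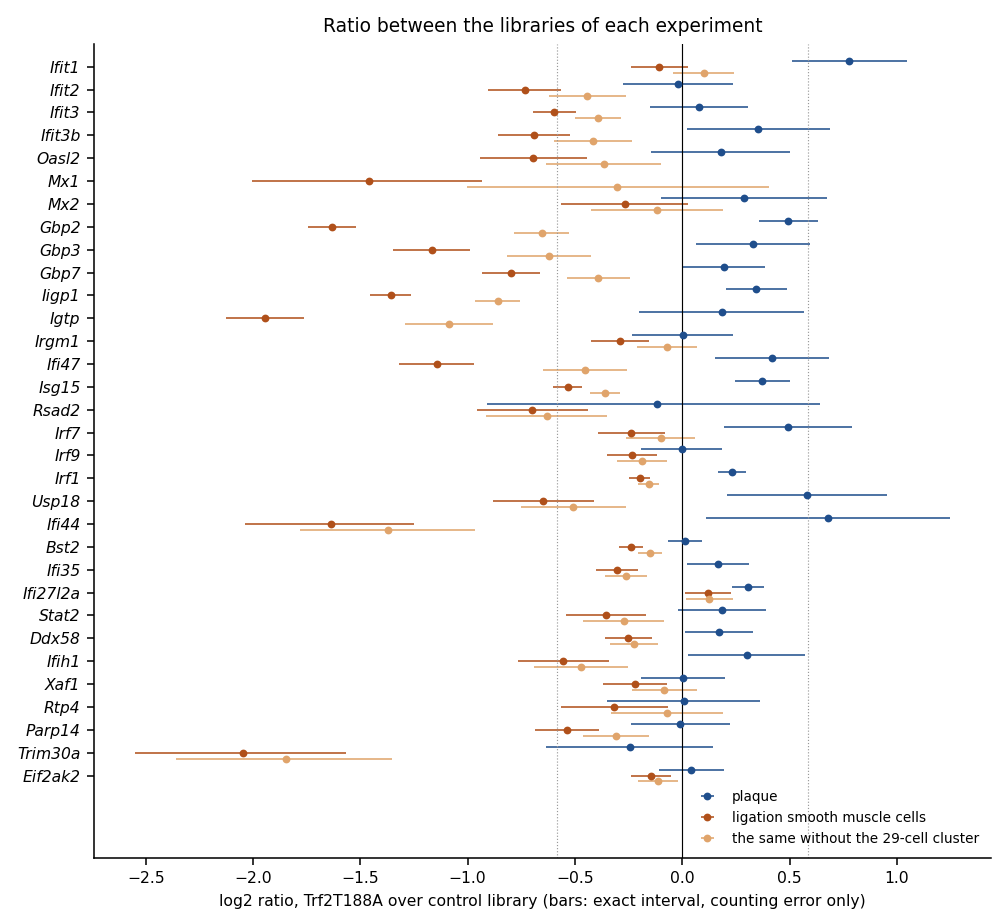
Log2 ratio of the Trf2T188A library over the control library for the same 32 genes (members under 20 UMIs left out) in plaques (dark blue), in ligation smooth muscle cells (dark orange) and in ligation smooth muscle cells without the 29-cell cluster (light orange), with exact 95% intervals of counting error and dotted lines at 1.5-fold. Plaque points sit near or right of 0, ligation points left of it, and for the Gbp/Irg genes and Mx1 the light orange points sit well to the right of the dark ones.

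For Gbp2 the ligation difference lay in the UMIs per positive cell more than in the share of positive cells. Gbp2 was detected in 13.1% of control cells and 13.2% of Trf2T188A cells, but a positive cell held 3.26 UMIs in control and 1.35 in Trf2T188A. The 1% of control cells with the most Gbp2 held 64.2% of its UMIs, against 25.1% in Trf2T188A. With every cell thinned to 5000 UMIs, the share of Gbp2-positive cells was 7.59% (6.84 to 8.40) in control and 6.12% (5.48 to 6.82) in Trf2T188A, and the highest count in a cell was 45 and 9. Igtp, by contrast, was also found in fewer cells of the thinned Trf2T188A library, 1.99% (1.62 to 2.41) against 4.31% (3.74 to 4.94). The Ifit genes divided on this measure. The top 1% of cells held 75.0% and 77.1% of Ifit3 UMIs and 65.2% and 70.8% of Ifit1 UMIs, but 38.2% and 25.4% of Ifit2 UMIs, and Ifit2 was found in 8.53% and 8.33% of cells, against 5.92% and 6.00% for Ifit3. Those shares are at full depth. In thinned cells Ifit2 was found in 4.88% (4.27 to 5.54) of control and 3.35% (2.88 to 3.88) of Trf2T188A cells. Ifit3 was then found in 4.24% (3.68 to 4.87) and 3.47% (2.99 to 4.01). Irf1 was spread most widely of these, with 9.06% and 9.18% of its UMIs in the top 1% of cells. No cell type here lacks interferon-stimulated genes, so a share set by free RNA in the droplets cannot be given beside these shares.

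The 29-cell cluster was formed without the members, which had been left out of the variable genes together with 76 other interferon genes, and 6 members nevertheless stood among its 10 leading genes (Gbp2, Igtp, Iigp1, Ifi47, Ifit3 and Gbp3, with Ccl5, Cxcl10, Gbp5 and Psmb8). Genes such as Ccl5, Cd74 and H2-Aa were not among those left out. The cluster was picked as the ligation cluster with the highest Gbp/Irg level, so its high Gbp/Irg values follow in part from that choice. The 28 control cells of the cluster were 0.573% of the control smooth muscle cells and held 36.5% of their Gbp/Irg UMIs, 20.6% of their Ifit/Oas/Mx UMIs and 15.1% of all member UMIs. Of the 28, 24 had all 7 Gbp/Irg genes and 28 had at least 6, whereas all 7 were found in 22 of the 4858 other control cells and in 18 of 5269 other Trf2T188A cells. The Ifit/Oas/Mx genes were uneven among the 28 cells, with a median of 4 genes and a range of 0 to 10. The Trf2T188A cell of the cluster had all 7 Gbp/Irg genes and 8 Ifit/Oas/Mx genes.

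In the 28 cells Gbp2 was at 35.1 (33.0 to 37.3), against 0.223 in the other control cells, a log2 ratio of 7.30, and it was detected in all 28. Igtp was at 14.5 against 0.107 (7.08), Ifi47 at 9.47 against 0.0915 (6.69) and Iigp1 at 28.4 against 0.368 (6.27). Gbp3 (6.24), Gbp7 (5.75) and Irgm1 (4.81) completed the order of the Gbp/Irg genes. The well-counted Ifit/Oas/Mx genes lay lower than most of these, between 4.30 for Mx2 and 5.53 for Ifit3b, except Mx1 at 8.01, from 56 UMIs in 3 cells. Isg15 was at 16.9 against 0.690 (4.61), Irf1 at 6.85 against 1.248 (2.46), with a UMI in all 28 cells, and Ifi27l2a at 0.403 against 0.245 (0.72, −0.24 to 1.53), the member that differed least.

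These cells held transcripts of contractile smooth muscle. Myh11, the smooth muscle myosin heavy chain, was at 31.8 in the 28 cells and 33.4 elsewhere and was found in all 28, Tagln was at 114 and 112, and Acta2 was at 135 and 163. The 27 contractile markers summed to 440, against 534 in contractile-like, 594 in remodelling-like and 279 in de-differentiated-like control cells. Of 11 endothelial markers 8 were at 0, with a sum of 0.336 against 105 in endothelial-like cells, and of 8 lymphoid markers 7 were at 0, the exception being Ccl5 with 560 UMIs in 6 cells. Of 16 myeloid markers 7 were at 0, among them Lyz2, Ptprc, Tyrobp and Fcer1g, and the sum of 28.9 (391 in myeloid-like cells) came largely from genes of antigen presentation, with Cd74 at 16.3 in 21 cells. Median depth was 9611.5 UMIs, and 0 of the 28 lay above the 95th percentile of the doublet score of their library. The doublet caller marked too few cells to have worked, so its score cannot decide whether these cells were doublets.

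**Figure D3:**
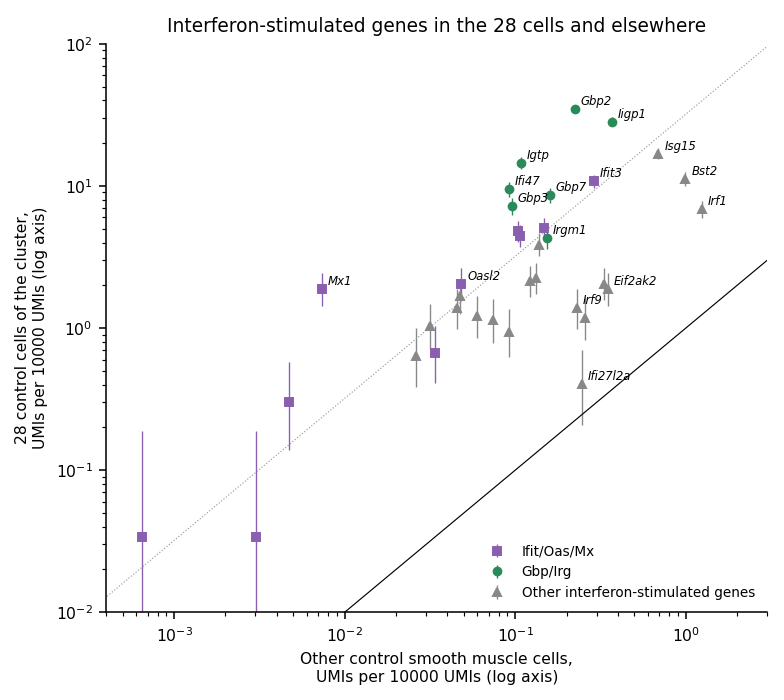
Level of each interferon-stimulated gene in the 28 control cells of the 29-cell cluster (y axis) against the level in the other control smooth muscle cells of the ligation experiment (x axis), both in UMIs per 10000 UMIs on log axes, with exact 95% intervals, a solid line at equal levels and a dotted line 5 log2 units above it; genes at 0 on either axis are not drawn. Gbp/Irg genes (green circles) lie on or above the dotted line except Irgm1, Ifit1, Ifit2, Ifit3 and Ifit3b (purple squares) lie just above it, and Ifi27l2a, Ddx58, Eif2ak2 and Irf1 are nearest to the solid line.

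Within plaques, the members differed widely between cell states. Cells were clustered without the members, and clusters were named from marker genes. Against contractile-like cells, the cluster led by Saa3, C3, Lcn2 and Il6 (complement and acute phase-like, 108 ApoE-/- and 80 Trf2T188A/ApoE-/- cells) was higher past 1.5-fold in both libraries for 25 of 30 members assessed, beside 15.3% of genes, and lower for none, beside 10.1%. The 25 were 5 of 6 Ifit/Oas/Mx genes, 6 of 7 Gbp/Irg genes and 14 of 17 others. The summed Gbp/Irg level was 1.83 (1.68 to 1.99) against 0.475 in ApoE-/- (log2 ratio 1.95) and 2.92 (2.71 to 3.13) against 0.726 in Trf2T188A/ApoE-/- (2.01). The summed Ifit/Oas/Mx level was 0.820 against 0.227 in ApoE-/- (1.85) and 1.48 against 0.207 in Trf2T188A/ApoE-/- (2.83). In that last library 180 of the 390 UMIs were in 1 cell, and without the 3 cells with the most UMIs the levels were 0.581 against 0.163.

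Isg15 shows the size of the step. It was at 0.552 in complement and acute phase-like and 0.0859 in contractile-like ApoE-/- cells, and at 1.06 and 0.0821 in Trf2T188A/ApoE-/- cells. Iigp1 was at 0.600 and 0.132 in ApoE-/- and at 1.02 and 0.194 in Trf2T188A/ApoE-/-. Ifi47 was at 0.197 and 0.0127 in ApoE-/-, and at 0.250 and 0.0345 in Trf2T188A/ApoE-/-. Isg15, Iigp1 and Ifi47 were each higher in the former state in each library. Ifi27l2a was not among the 25, since it was at 2.27 and 0.188 in ApoE-/- but at 1.39 and 1.503 in Trf2T188A/ApoE-/-. That last value rested on few cells, since 1 contractile-like cell held 170 of the 348 Ifi27l2a UMIs, and without the 3 top cells of each library the contractile-like levels were 0.116 and 0.409. Igtp was the Gbp/Irg gene outside the 25, at 0.0678 and 0.0159 in ApoE-/- and at 0.0645 and 0.0518 in Trf2T188A/ApoE-/-.

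Other named plaque states were set against contractile-like cells in the same way. In the Itih4, Wnt16 and Fgl2 intermediate-like cells, 12 of 24 members were higher in both libraries, beside 5.67% of genes, and none was lower, beside 3.22%. Of these, 6 were among 7 Gbp/Irg genes, 2 among 4 Ifit/Oas/Mx genes and 4 among 13 others, and the log2 ratios of the sums were 1.68 and 1.12 for Gbp/Irg and 0.45 and 0.84 for Ifit/Oas/Mx, in ApoE-/- and Trf2T188A/ApoE-/-. In fibromyocyte-like cells 15 of 29 were higher, beside 16.5% of genes, and none was lower, beside 12.7%. The 15 were 3 of 6 Ifit/Oas/Mx genes, 4 of 7 Gbp/Irg genes and 8 of 16 others, with log2 ratios of 1.22 and 0.80 for Gbp/Irg and 0.58 and 1.53 for Ifit/Oas/Mx. Isg15 was again among the higher members, at 0.507 and 0.664 in fibromyocyte-like cells. Bst2 was at 1.31 and 1.71 there, against 0.569 and 0.648 in contractile-like cells. In chondrocyte-like cells, of 16 members assessed 6 were lower, beside 30.1% of genes, and 1 was higher, beside 13.5%. The 6 were Ifit2, Gbp2, Iigp1, Ifi35, Ifi27l2a and Parp14, a share near the background, and the higher one was Isg15. Gbp2 was at 0.0318 and 0.0373 in chondrocyte-like cells, against 0.140 and 0.238 in contractile-like cells. Their Ifit/Oas/Mx level of 0.532 in ApoE-/- rested on 1 cell with 142 of the 184 UMIs, and was 0.0779 without 3 cells.

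Genotype ratios within plaque states did not share a direction for the Ifit/Oas/Mx genes. In complement and acute phase-like cells the sum was 0.820 in ApoE-/- and 1.48 in Trf2T188A/ApoE-/-, but 0.498 and 0.581 without the 3 top cells of each library. In contractile-like cells it was 0.227 and 0.207, and in immediate-early-like cells 0.771 and 0.142, where 140 of the 195 ApoE-/- UMIs were in 1 cell. The Gbp/Irg sum did not share a direction over the states either. It was 0.475 and 0.726 in contractile-like cells (0.442 and 0.510 without the top 3), 1.10 and 1.27 in fibromyocyte-like cells and 1.83 and 2.92 in complement and acute phase-like cells (1.62 and 1.90 without the top 3). In intermediate-like cells it was 1.52 and 1.58, in chondrocyte-like cells 0.350 and 0.286, in immediate-early-like cells 1.17 and 1.07, and in the unnamed cluster led by Flnc and Mpp7 0.669 and 0.529.

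**Figure D4:**
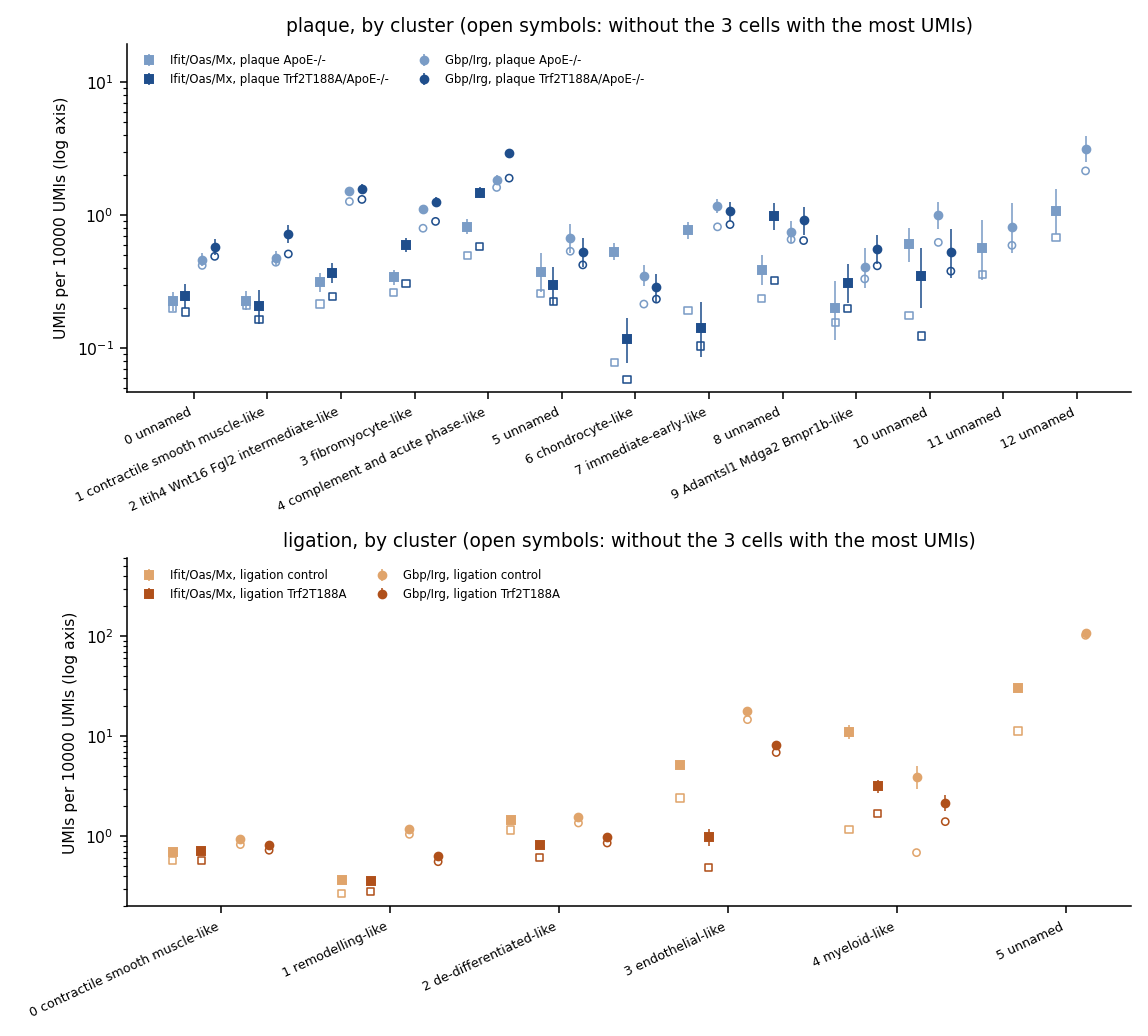
Summed level of the Ifit/Oas/Mx genes (squares) and the Gbp/Irg genes (circles) by cluster and library, in UMIs per 10000 UMIs on a log axis, for plaques (top) and ligation (bottom), with exact 95% intervals; open symbols leave out the 3 cells with the most UMIs of the set, and clusters with under 14 cells in a library, the Trf2T188A cell of ligation cluster 5 among them, are not drawn. Circles lie above squares in most clusters, open squares fall far below filled ones where a few cells hold most UMIs, and ligation cluster 5 lies above all others at 30.1 for Ifit/Oas/Mx and 107.5 for Gbp/Irg.

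After ligation the 3 large smooth muscle states had different balances of the families. In contractile-like cells (led by Sparcl1) the Ifit/Oas/Mx sum was 0.703 (0.662 to 0.747) in control and 0.719 (0.689 to 0.751) in Trf2T188A, and the Gbp/Irg sum was 0.947 and 0.826. Remodelling-like cells (led by Igfbp2 and Ccn5) had less of the Ifit/Oas/Mx genes, 0.368 and 0.360, while the Gbp/Irg sum was 1.18 (1.13 to 1.23) in control and 0.641 (0.608 to 0.674) in Trf2T188A. De-differentiated-like cells (led by Ecrg4, Lum and Gdf10) had the most of both in control, 1.45 (1.38 to 1.52) and 1.57 (1.49 to 1.64), against 0.814 and 0.974 in Trf2T188A. The counting intervals of the genotypes for Ifit/Oas/Mx overlapped in contractile-like and remodelling-like cells and did not in de-differentiated-like cells. The ratio between states depended on the clustering. With the members kept among the variable genes, the Ifit/Oas/Mx log2 ratio of de-differentiated-like over contractile-like cells went from 1.04 to 0.277 in control and from 0.178 to 0.726 in Trf2T188A, and was then larger in Trf2T188A than in control. For Gbp/Irg the control level was higher in each of the 3 states.

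Member by member, de-differentiated-like cells were higher than contractile-like cells past 1.5-fold in both libraries for 9 of 32, beside 9.33% of genes, and lower for 1, Ifi27l2a, beside 6.53%. The 9 were Oasl2, Mx1, Ifi47, Isg15, Irf1, Ifi44, Ifih1, Rtp4 and Trim30a. Isg15 was at 1.07 and 0.648 in the 2 states of control and at 0.756 and 0.454 in those of Trf2T188A. Ifit3 was not among them, at 0.629 and 0.259 in control but 0.312 and 0.270 in Trf2T188A. Remodelling-like cells were higher for 3 of 31, beside 4.22% of genes, namely Ifi47, Irf1 and Trim30a. They were lower for 5, beside 6.3%, namely all 4 Ifit genes and Ifi27l2a. Ifit3 was at 0.117 in remodelling-like and 0.259 in contractile-like control cells, and at 0.106 and 0.270 in Trf2T188A. Irf1 went the other way, at 1.45 and 0.807 in control and at 1.48 and 0.746 in Trf2T188A. Low Ifit and high Irf1 transcript in the same state was thus seen in both libraries.

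Endothelial-like cells, 62 control and 65 Trf2T188A, exceeded contractile-like cells for 25 of 31 members, beside 18.6% of genes, and were lower for none, beside 21.1%. All 7 Gbp/Irg genes were among the 25. The Gbp/Irg sum was 18.04 in control and 8.23 (7.70 to 8.79) in Trf2T188A endothelial-like cells, and 14.7 and 6.88 without the 3 top cells of each. The Ifit/Oas/Mx sum was 5.16 and 0.979, and 2.41 and 0.485 without them. The lower Gbp/Irg level of the Trf2T188A library was therefore present outside smooth muscle as well.

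Cells that held several Ifit/Oas/Mx genes mostly held several Gbp/Irg genes too. A cell was counted as positive for a family with a UMI of 3 or more of its genes, after thinning to 8000 UMIs in plaques and 5000 after ligation. For Ifit/Oas/Mx, 18 of 1410 ApoE-/- cells (1.28%, 0.758 to 2.01), 13 of 807 Trf2T188A/ApoE-/- cells (1.61%, 0.861 to 2.74), 78 of 4571 control cells (1.71%, 1.35 to 2.13) and 64 of 5128 Trf2T188A cells (1.248%, 0.962 to 1.59) were positive, so the intervals of the genotypes overlapped. For Gbp/Irg, 50 (3.55%) and 33 (4.09%) plaque cells were positive, and 155 control cells (3.39%, 2.89 to 3.96) against 77 Trf2T188A cells (1.502%, 1.19 to 1.87), where the intervals did not overlap. Among cells with 3 or more Ifit/Oas/Mx genes, 79.5% (68.8 to 87.8) of control and 59.4% (46.4 to 71.5) of Trf2T188A ligation cells had 3 or more Gbp/Irg genes, against 1.39% and 0.391% of cells with none. In plaques the shares were 55.6% (30.8 to 78.5) and 69.2% (38.6 to 90.9), against 2.41% and 2.02%. At full depth, 3.995% and 3.66% of plaque cells and 2.66% and 2.39% of ligation cells were positive for Ifit/Oas/Mx. For Gbp/Irg the full-depth ligation shares were 5.34% (4.73 to 6.01) in control and 4.535% (3.99 to 5.13) in Trf2T188A. There the intervals overlapped, but the depth of the libraries was not levelled.

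**Figure D5:**
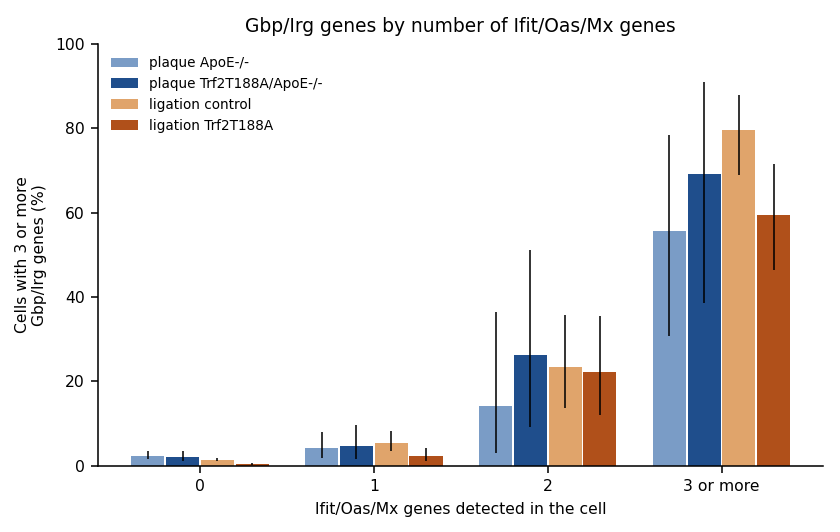
Share of cells with 3 or more Gbp/Irg genes (%) by the number of Ifit/Oas/Mx genes detected in the cell, at 8000 UMIs per plaque cell and 5000 per ligation smooth muscle cell, for the 4 libraries, with exact 95% binomial intervals. In each library the share is lowest in cells with 0 Ifit/Oas/Mx genes and highest, between 55.6% and 79.5%, in cells with 3 or more.

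Most cells positive for Gbp/Irg were not positive for Ifit/Oas/Mx. Cells positive for Gbp/Irg alone outnumbered those positive for Ifit/Oas/Mx alone. They were 2.035% of control and 0.7605% of Trf2T188A thinned ligation cells. In those libraries Oas1a, Oasl1, Oas2, Oas3 and Mx1 were each found in at most 0.284% of cells. Each Gbp/Irg gene was found in 1.99% to 7.72%. A bar of 3 genes was thus not equally hard to reach for both families. Of the 155 positive control cells 93 lacked 3 Ifit/Oas/Mx genes, and of the 77 Trf2T188A cells 39 did, while only 16 and 26 cells were positive for Ifit/Oas/Mx alone. At full depth, control cells split into 30 positive for Ifit/Oas/Mx only, 100 for both, 161 for Gbp/Irg only and 4595 for neither, with medians of 8534, 9945.5, 11257 and 8558 UMIs. Isg15 was at 6.76, 17.4, 1.31 and 0.315 in these cells in that order, and Rsad2 at 0.485, 1.85, 0.0241 and 0.0120. Both therefore went with the Ifit/Oas/Mx genes. Irf1 was at 1.003, 2.95, 2.10 and 1.21, higher in the cells with Gbp/Irg genes. Cd74, which is no member, was at 0.0324, 4.42, 0.781 and 0.0885, while Ptprc, a marker of all white blood cells, had 0 UMIs in the 291 positive cells. Of the 28 control cells of the small cluster led by Gbp2, 23 were positive for both families at full depth. Those 28 cells held 485 Cd74 UMIs and 204 Irf1 UMIs. Their levels were 16.3 and 6.85, against 0.115 and 1.248 in the other control smooth muscle cells. The Cd74 and Irf1 levels of cells positive for both thus rested in part on that cluster, and their levels without it were not tested. Myh11 was at 25.2, 25.4, 36.2 and 33.5, so smooth muscle transcript was present in every class.

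Other genes of the pathway came from a list of 77. The interferon genes Ifnb1 and Ifng were nearly absent from smooth muscle cells, with 1 Ifnb1 UMI in control and 0 Ifng UMIs after ligation. Of the Ifna and Ifnl interferon genes only 3 were listed (Ifna16, Ifna2 and Ifnab), with 12 UMIs in all libraries. The others could not be assessed. Ifnb1, which encodes interferon beta, had 9 UMIs in 1 of 19 myeloid-like control cells and 33 UMIs in 6 of 57 myeloid-like Trf2T188A cells. Ifng had 6 UMIs in 3 myeloid-like Trf2T188A cells and none in control. The receptors differed little. Ifnar1 was at 0.234 and 0.220, Ifnar2 at 0.388 and 0.414, Ifngr1 at 0.501 and 0.508 and Ifngr2 at 1.83 and 1.80 in control and Trf2T188A ligation cells, and in plaques their log2 ratios lay between −0.07 and 0.13.

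After ligation 26 of 63 pathway genes assessed were lower in Trf2T188A past 1.5-fold, beside 4.89% of all genes, and 0 were higher, beside 5.36%. Without the 29-cell cluster 15 of 60 were lower, beside 4.75%. Socs1, an inhibitor of the receptor kinases, lay slightly above 0, at 0.340 and 0.418 (0.30, 0.21 to 0.39). Of the sensing genes, Cgas was at −0.01, Sting1 at −0.26, Tbk1 at −0.03 and Irf3 at 0.03, and Dhx58 alone of 6 was lower past 1.5-fold, at −0.67, and none of the 6 was without the 29-cell cluster, where Dhx58 was at −0.55. Immunoproteasome and peptide transport genes were lower with the Gbp genes, with Psmb8 at −1.05, Psmb9 at −1.22 and Tap1 at −0.80. Gbp5 was at −1.81, Irgm2 at −1.31 and Tgtp2 at −2.50. Part of these differences lay in the 28 control cells of the 29-cell cluster. Those cells held 224 Gbp5 UMIs, against 128 in all other control smooth muscle cells. The same counts were 324 and 737 for Psmb8, 130 and 299 for Psmb9, and 106 and 462 for Tap1. Gbp4 had 30 UMIs in control, all in the 29-cell cluster, and 0 in Trf2T188A.

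In plaques 6 of 64 pathway genes were higher in Trf2T188A/ApoE-/- past 1.5-fold, beside 4.09% of all genes, and 1, Slfn5, was lower (−0.68, −1.30 to −0.10), beside 6.72%. Among the 6, Gbp6 had 25 and 47 UMIs (1.56, 0.84 to 2.33), Gbp9 45 and 46 (0.69), Ifitm1 11 and 17 (1.28), Ciita 19 and 19 (0.65) and Slfn2 191 and 218 (0.84, 0.56 to 1.13). Cxcl9, a chemokine that interferon gamma induces strongly, had 2 and 126 UMIs, and all 126 were in 2 complement and acute phase-like cells. Cxcl10, a chemokine of both interferon types, was at 0.327 and 0.367 (0.17, 0.04 to 0.30).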

How the data were processed

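Single-cell RNA-seq (10x Genomics 3′, v3) of 4 libraries was analysed, 1 per genotype in each of 2 experiments. Per the submitters' processing notes, the authors aligned reads to GRCm38 with Cell Ranger 7.0.0 (plaque) or 6.1.2 (ligation) and processed cells in Seurat, for which the sources used here differ on the version. Per the study's methods, they removed cells with fewer than 1500 (ApoE-/-), 1000 (Trf2T188A/ApoE-/-) or 1200 (ligation) genes, with more than 8% (plaque) or 6% (ligation) mitochondrial reads and, after ligation, where the top genes took over 40% of reads. The deposited values are a depth-scaled signal, a linear value of UMIs per gene scaled to 10000 UMIs in each cell. Each cell's smallest value was taken as 1 UMI, and 100% of values then came out whole within 0.01, so sums of whole UMIs were used.

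Groups were taken from the labels. The planned comparison of summed counts has 1 library per group, so no test was run. Sums carry exact Poisson intervals, ratios exact conditional binomial intervals and shares exact Clopper-Pearson intervals, all at 95%. UMIs of 1 cell are not independent of each other, so the true error is larger than these intervals. Genes with at least 20 UMIs over both libraries were assessed, a difference past 1.5-fold was counted, and the same rule over all genes gave the background share. The named genes are the 36 members, with values in every library for those with at least 100 UMIs in an experiment, beside 77 other pathway genes (76 of them listed in each experiment). Members and lists were chosen with earlier results of these data known. Promoter sequences are from RefSeq (GRCm38.p6), and gene positions are from GENCODE on the same assembly.

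Cells of each experiment were clustered in Seurat 5.3.0 (R 4.3.3, Matrix 1.6.5) on 2000 variable genes without the members and pathway genes, with 18 (plaque) or 17 (ligation) components at resolution 0.9 or 0.2, which gave 13 and 6 clusters. A cluster was named for a marker list with at least 3 of its 10 leading genes by fold, and more of them than any other list, so shares may differ from those of the authors' own annotation. Scrublet (scanpy 1.11.5) called at most 0.323% of cells as doublets, too few to have worked, and no cell was removed; an alternative dropped the top 5% of cells by score. Shares of positive cells were compared after thinning each cell to 8000 (plaque) or 5000 (ligation) UMIs, which left out 92 ApoE-/-, 122 Trf2T188A/ApoE-/-, 325 control and 154 Trf2T188A cells. Python 3.11.15 with numpy 2.4.6, pandas 2.3.3, scipy 1.17.1 and matplotlib 3.10.9 was used, and the scripts were tested on simulated data. Reads of near-identical genes (Ifit3 and Ifit3b, the Gbp, Oas1 and Trim30 families) can be split or lost in counting. Results for a few genes are not reported here.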

Additional observations from a re-analysis of the deposited data

Results flagged for a closer look

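Ifi44 lay in opposite directions in the experiments, at a log2 ratio of 0.6806 in plaques (54 ApoE-/- and 55 Trf2T188A/ApoE-/- UMIs, in 21 and 12 cells) and −1.638 in ligation smooth muscle cells (177 control and 80 Trf2T188A UMIs). Both values are past 1.5-fold. In plaques the 1% of cells with the most Ifi44 held 88.9% and 94.6% of its UMIs. The difference between the experiments was not tested, since each ratio compares 1 library with 1 library.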

How the results depend on the processing

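No paired analysis was possible because each genotype had 1 library per experiment, and leaving out a replicate was not possible for the same reason. Of 138 values under other settings, no ratio or median changed sign. Of the same values, 90 moved by less than the limit set for the value and the 48 others are given here. Shares and counts cannot change sign. The order of the plaque shares of Ifit/Oas/Mx-positive cells did reverse. ApoE-/- was at 1.28% and Trf2T188A/ApoE-/- at 1.61% after thinning, but at 4.0% and 3.66% with all UMIs. The cause of these shifts was not tested. Settings that left out the 29-cell cluster, or that took in all ligation cells or left out the 3 top cells, were chosen after the data had been seen.

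With the mean per cell and a pseudocount of 1, the plaque log2 ratios were 0.0939 (Ifit/Oas/Mx) and 0.127 (Gbp/Irg), those after ligation −0.262 and −0.653 with a median over members of −0.0393, the plaque median over members went from 0.19 to 0.0179, and no member passed 1.5-fold in plaques (0 higher) or after ligation (0 lower). The plaque count of 2 higher members was 5 with cells thinned to 8000 UMIs, 1 with clusters weighted equally, 11 at a fold threshold nearer to 1 and 0 at 2-fold, and 2 were lower with genes of at least 1 UMI. The ligation count of 16 lower members was 9 with clusters weighted equally, 9 at 2-fold and 8 without the 29-cell cluster. The ligation Ifit/Oas/Mx log2 ratio of −0.53 was −0.72 without the 1% of cells with the most member UMIs, −0.414 with clusters weighted equally, −0.283 without the 29-cell cluster and −0.627 over all cells, and the Gbp/Irg ratio of −1.21 was −0.915, −0.597 and −0.598 under the first 3 of these.

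The shares of cells with 3 or more Ifit/Oas/Mx genes, in the order ApoE-/-, Trf2T188A/ApoE-/-, control and Trf2T188A, were 2.77%, 3.96%, 3.11% and 2.3% for 2 or more genes, 0.284%, 0.372%, 0.613% and 0.254% for 5 or more, and 4.0%, 3.66%, 2.66% and 2.39% with all UMIs, and the control share was 1.32% without the 29-cell cluster. The complement and acute phase-like over contractile-like log2 ratios at resolution 1.8 were 1.72 for Gbp/Irg in ApoE-/-, and 3.34 (Ifit/Oas/Mx) and 2.79 (Gbp/Irg) in Trf2T188A/ApoE-/-. With members kept among the variable genes they were 2.57 (Ifit/Oas/Mx) and 2.3 (Gbp/Irg) in ApoE-/- and 2.3 (Gbp/Irg) in Trf2T188A/ApoE-/-. The de-differentiated-like over contractile-like ratios at resolution 0.4 were 0.864 and 0.583 in control and 0.0107 and 0.139 in Trf2T188A (Ifit/Oas/Mx, then Gbp/Irg), and with members kept they were 0.277 and 0.346 in control and 0.726 (Ifit/Oas/Mx) in Trf2T188A. At the lower resolutions of 0.45 and 0.1 no cluster took either name, so no value was had.

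Depth limits the Oas genes and Mx1 most, which had few UMIs in plaques. Where 1 to 3 cells hold most UMIs of a set, counting intervals understate the error.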

Other observations

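Irf1 was high in a pair of plaque clusters. In the immediate-early-like cluster, led by Gadd45b, Csrnp1 and Nfkbia with Irf1 itself, Irf1 was at 3.48 in ApoE-/- and 3.49 in Trf2T188A/ApoE-/- cells, and in an unnamed cluster led by Flnc and Mpp7 at 3.74 and 4.80, against 0.902 and 0.834 in contractile-like cells. The Gbp/Irg sums of those clusters were 1.17 and 1.07, then 0.669 and 0.529, against 0.475 and 0.726 in contractile-like cells. A list of 18 genes that tissue digestion is known to induce, such as Fos, Jun and Atf3, summed to 207 and 245 and to 201 and 225 there, against 130 and 127 in contractile-like cells and 63.2 and 56.8 in the unnamed cluster led by Tnnt2 and Sema3a, where Irf1 was at 0.360 and 0.241. In chondrocyte-like cells the list summed to 222 and 241 with Irf1 at 1.27 and 1.48. The part of digestion in the Irf1 level was not tested.

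Myeloid-like cells of the ligation experiment, 19 control and 57 Trf2T188A, had Ifit/Oas/Mx sums of 11.05 and 3.19 UMIs per 10000 UMIs, of which 3 control cells held 91.3%. Ifi27l2a was at 7.22 and 5.87 there, against 0.400 and 0.361 in contractile-like cells.

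With members kept among the variable genes, the ligation cells formed a cluster of 165 cells, 109 control and 56 Trf2T188A, which took in all 29 cells of the small cluster with 65 contractile-like, 17 remodelling-like and 54 de-differentiated-like cells.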
